A study of Mus musculus with 4 samples.

Results

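The 10 genes described here are Atf4, Atf3, Ddit3, Cebpb, Cebpg, Trib3, Ppp1r15a, Nupr1, Chac1 and Sesn2, the transcription factors and feedback genes of the PERK-ATF4-CHOP stress response, out of 21900 protein-coding genes. They were chosen by name and looked up in the gene column of a list of DNA intervals bound by XBP1s. A gene that the column does not name counted as having no peak. XBP1s is the factor made when the unfolded protein response splices the Xbp1 transcript. Its binding was mapped by ChIP-seq, the sequencing of DNA that an antibody pulls down with the protein, in natural killer (NK) cells. These lymphocytes kill infected and tumour cells. Per the labels they came from the spleens of Il15TgXbp1f/f mice, on strain C57BL/6, which carry an IL-15 transgene and floxed Xbp1 alleles; no Cre is named. All libraries, inputs included, come from cells given IL-15 at 50 ng/ml for 1 h, so there is no group without IL-15. There are 2 libraries from XBP1s immunoprecipitation and 2 input libraries, and 1 combined list of 4890 peaks was analysed. That list has no value of any single library, so no peak here has a replicate error, the depth of the libraries is unknown and no difference between libraries could be tested. The labels do not say whether the 2 immunoprecipitations came from separate animals.

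When unfolded proteins load the endoplasmic reticulum (ER), 3 sensors respond. IRE1 splices Xbp1, ATF6 is cleaved to release a transcription factor, and PERK phosphorylates the translation factor eIF2alpha. Phosphorylated eIF2alpha slows protein synthesis while favouring translation of ATF4, which switches on CHOP (encoded by Ddit3), ATF3, TRIB3, CHAC1, SESN2 and NUPR1. GADD34 (encoded by Ppp1r15a) then brings a phosphatase to eIF2alpha and restores synthesis. C/EBPbeta and C/EBPgamma are partners with which ATF4 and CHOP form dimers. XBP1s and ATF6 recognise elements built on an ACGT or CCACG core, while ATF4 dimers recognise a composite C/EBP-ATF element.

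XBP1s peaks were listed at 3 of the 10 genes: Atf4, Ddit3 and Ppp1r15a, the factor at the head of the branch, its death-promoting target and the phosphatase subunit that ends the response. Trib3, Chac1, Atf3, Cebpb, Cebpg, Nupr1 and Sesn2 had none. The 3 genes make 30.0% of the 10 (exact Clopper-Pearson 95% interval 6.67 to 65.2, counting error only), and over all protein-coding genes 15.9% had their own peak with its centre within 5000 bp of the transcription start site (TSS). No test was made of this share, because the genes were picked by hand. A promoter is called CpG-rich here when its 300 bp in RefSeq have a GC content above 50% and a ratio of observed to expected CpG above 0.6. Peaks were listed at 28.9% of the genes with such a promoter and at 5.15% of those without. Of the 10 genes 9 have such a promoter, from Ppp1r15a with a ratio of 1.13 to Chac1, which is at the limit with 0.60; Nupr1 has 0.25. A peak was listed at 3 of these 9 (33.3%), which is near the share of all CpG-rich genes.

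The promoters of the 3 genes with a peak, and those of Nupr1 and Chac1 for comparison, are shown for the letters that stress factors are known to read. Each run is the 250 bases before the RefSeq start of transcription (GRCm38.p6), 5′ to 3′ on the strand of the gene. The places are chr15:80254934-80255183 on the plus strand for Atf4, chr10:127290543-127290792 on the plus strand for Ddit3, chr7:45526269-45526518 on the minus strand for Ppp1r15a, chr7:126625471-126625720 on the minus strand for Nupr1 and chr2:119350992-119351241 on the plus strand for Chac1. Capitals mark every match, on either strand, to the ACGT, XBP1 and CCACG cores, the CCAAT box, the cAMP response element, the AP-1 site and the C/EBP-ATF element in its 8-letter form, which are spelled out with the motif counts.
Atf4: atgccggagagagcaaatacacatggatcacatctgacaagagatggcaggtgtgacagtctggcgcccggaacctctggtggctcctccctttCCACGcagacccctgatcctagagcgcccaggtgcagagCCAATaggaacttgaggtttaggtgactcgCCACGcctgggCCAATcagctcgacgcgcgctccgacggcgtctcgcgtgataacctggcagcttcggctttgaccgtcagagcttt
Ddit3: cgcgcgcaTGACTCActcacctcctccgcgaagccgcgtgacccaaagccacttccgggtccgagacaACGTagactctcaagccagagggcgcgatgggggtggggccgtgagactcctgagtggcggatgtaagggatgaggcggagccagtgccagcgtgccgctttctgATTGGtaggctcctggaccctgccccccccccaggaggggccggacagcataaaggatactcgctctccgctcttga
Ppp1r15a: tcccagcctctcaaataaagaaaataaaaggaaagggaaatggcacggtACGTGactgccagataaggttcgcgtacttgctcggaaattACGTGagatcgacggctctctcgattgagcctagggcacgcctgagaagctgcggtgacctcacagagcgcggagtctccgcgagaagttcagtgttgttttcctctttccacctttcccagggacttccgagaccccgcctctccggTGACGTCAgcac
Nupr1: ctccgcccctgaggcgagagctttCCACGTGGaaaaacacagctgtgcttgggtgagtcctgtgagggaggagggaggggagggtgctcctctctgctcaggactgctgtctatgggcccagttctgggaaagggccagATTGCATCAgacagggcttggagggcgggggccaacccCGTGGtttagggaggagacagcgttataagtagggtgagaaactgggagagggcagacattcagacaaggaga
Chac1: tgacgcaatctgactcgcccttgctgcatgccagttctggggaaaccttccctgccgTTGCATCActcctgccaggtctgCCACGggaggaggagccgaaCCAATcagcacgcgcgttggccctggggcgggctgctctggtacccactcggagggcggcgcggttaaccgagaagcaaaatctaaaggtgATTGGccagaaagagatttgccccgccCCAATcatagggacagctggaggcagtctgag

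Atf4, which encodes the transcription factor ATF4, had the widest peak of the group. Its single interval was 1733 bp long (chr15:80254631-80256363, mm10), and HOMER annotated it to the 5' untranslated region in exon 1 of 3. It reached from 553 bp upstream to 1179 bp downstream of the TSS and covered 1180 of the 2362 bp of the gene (50.0%), with its centre 313 bp downstream. The score column is 0 for every peak, so width is given in its place, and width is not a measure of signal. By width this peak ranked 51 of 4890, wider than 99.0% of all peaks and at rank 3 of the 267 peaks in 5' untranslated regions (median 370 bp). Among the 3487 protein-coding genes with a peak near the TSS, 44 had a wider one. The genes of the same annotation class closest to Atf4 in width were Eif3a, a subunit of the initiation factor eIF3 (1823 bp), Mbd3, a methyl-CpG binding domain protein (1483 bp), and Cltc, the clathrin heavy chain (1402 bp). No end of another gene lay within 1000 bp of the interval.

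**Figure D1:**
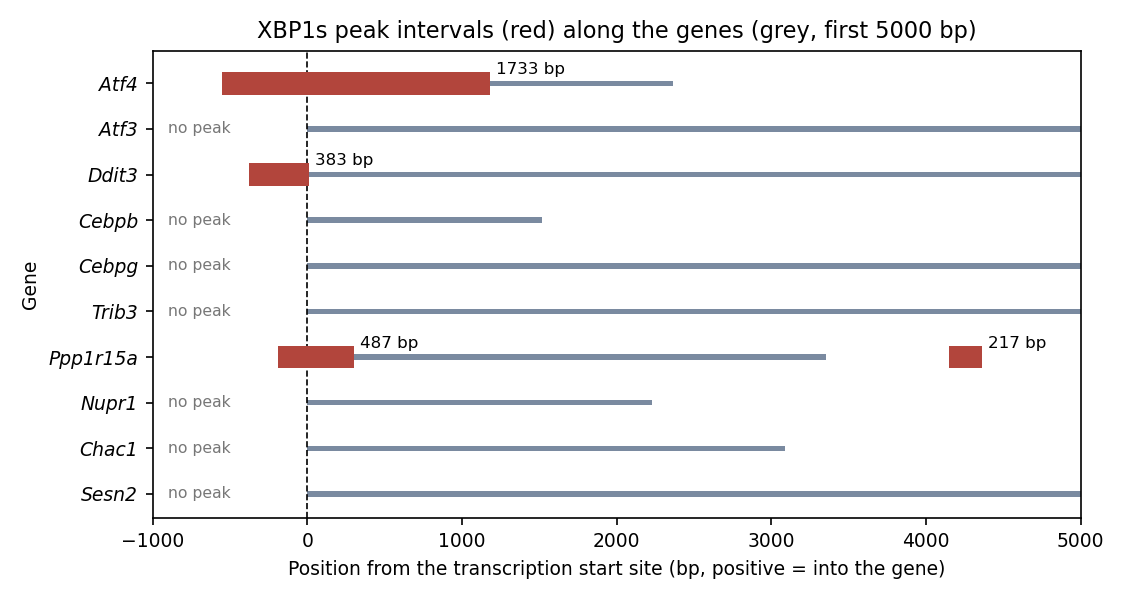
XBP1s peak intervals (red bars, width in bp) on the 10 genes (grey bars, first 5000 bp of the RefSeq gene), placed by distance in bp from the transcription start site, with positive values inside the gene. The Atf4 interval runs from 553 bp before to 1179 bp after the start, the Ddit3 interval lies almost wholly before the start, and 7 genes have no interval.

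Ddit3 encodes CHOP, a bZIP factor that promotes cell death under prolonged stress. Its interval of 383 bp (chr10:127290418-127290800) was annotated as promoter and lay almost entirely upstream, from 375 bp before to 7 bp after the TSS. It covered 8 of the 5499 bp of the gene (0.145%). Its centre was 184 bp upstream, whereas 40.6% of the 3152 peaks near a TSS of a gene with a RefSeq promoter were centred upstream. The width was close to the median of all peaks (373 bp), with 51.6% of peaks narrower. A second gene runs the other way here: in the RefSeq gene table Mbd6, on the minus strand, has its 5′ end 68 bp beyond the interval, so that the whole interval lies inside Mbd6 and cannot be given to 1 of the 2 genes by position. The promoter table places the starts of Mbd6 farther into that gene, and no peak was named for Mbd6.

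Ppp1r15a encodes GADD34, the stress-induced subunit that directs protein phosphatase 1 to eIF2alpha. It was the only one of the 10 genes with more than 1 peak, as were 283 of the 3487 protein-coding genes with a peak near the TSS (8.12%). The first interval was 487 bp (chr7:45525970-45526456, promoter), from 188 bp before to 298 bp after the TSS, and was wider than 65.7% of all peaks. The start of Plekha4, which is transcribed in the opposite direction, lies inside the same interval, so the peak cannot be given to 1 of the 2 genes by position. The second interval was 217 bp (chr7:45521905-45522121), beginning 795 bp beyond the 3′ end of the gene, and was annotated to the transcription termination site, a class that holds 84 of all peaks (1.72%). It was wider than 14.5% of all peaks.

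In 3 of the 4 the interval contained the TSS, against 62.8% of the 3152 peaks above. The median of the widest peak per gene was 487 bp over the 3 genes and 410 bp over all 3487 genes, and it rests on values as far apart as 383 and 1733 bp.

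**Figure D2:**
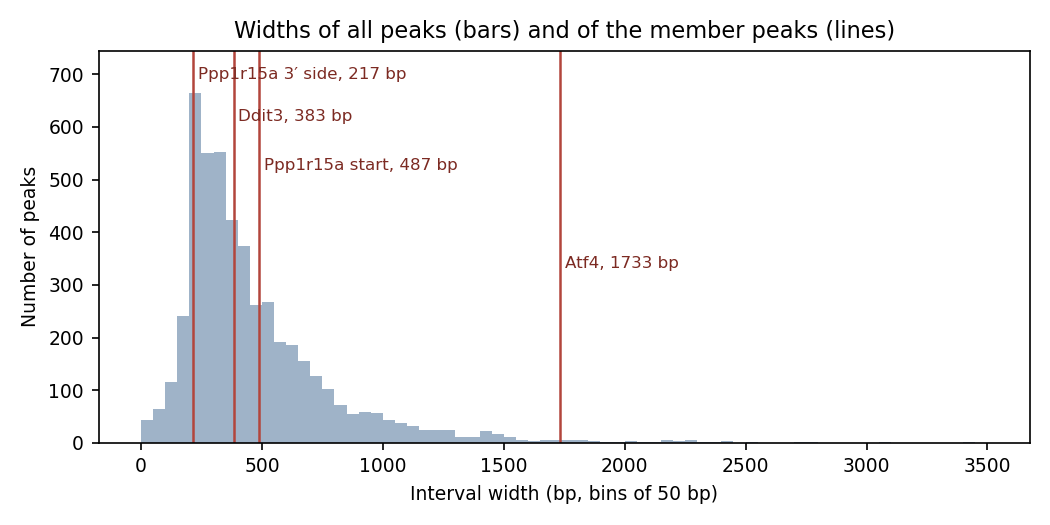
Number of peaks (vertical axis) by interval width in bp (horizontal axis, bins of 50 bp) for all 4890 peaks, with red lines at the 4 intervals of Atf4, Ddit3 and Ppp1r15a. The Atf4 interval of 1733 bp lies in the thin right tail, and the other 3 lie between 217 and 487 bp, where most peaks are.

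The 7 genes without a peak were also examined for peaks of other genes nearby, since an interval between neighbours is named for 1 of them only. No peak of any gene touched any of the 7, so 3 of the 10 genes (30.0%) were touched, against 18.6% of 21631 protein-coding genes on chromosomes with peaks. Trib3, a pseudokinase that restrains ATF4 and AKT signalling, came nearest. An interval of 286 bp at the promoter of Rbck1 (chr2:152332202-152332487), a ubiquitin ligase subunit gene, lay 4937 bp past the 3′ end of Trib3, and 11572 bp from its TSS. Nupr1, a small stress-induced chromatin protein, was 23.9 kb from a 320 bp interval of Sgf29. Sesn2, an inhibitor of mTORC1 signalling when leucine is scarce, was 28.8 kb from a 350 bp interval of Med18.

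Cebpb, a gene of 1518 bp that encodes C/EBPbeta, was 31.5 kb from a 535 bp interval of Tmem189. Chac1, which encodes a glutathione-degrading enzyme, was 123 kb from the 1361 bp interval of Ino80. Atf3, which encodes a bZIP repressor induced by many stresses, was 234 kb from a 420 bp interval named for Ppp2r5a, with 3 protein-coding genes in between, Ppp2r5a itself among them. Cebpg, which encodes the C/EBP partner of ATF4, lay farthest, at 746 kb, with 15 protein-coding genes in between, and 85.9% of protein-coding genes had a peak closer. The median distance was 31.5 kb over the 7 genes and 132 kb over the 17603 protein-coding genes that no peak touched. Of the 7 genes, 5 were below the latter median, and Atf3 and Cebpg were above it.

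**Figure D3:**
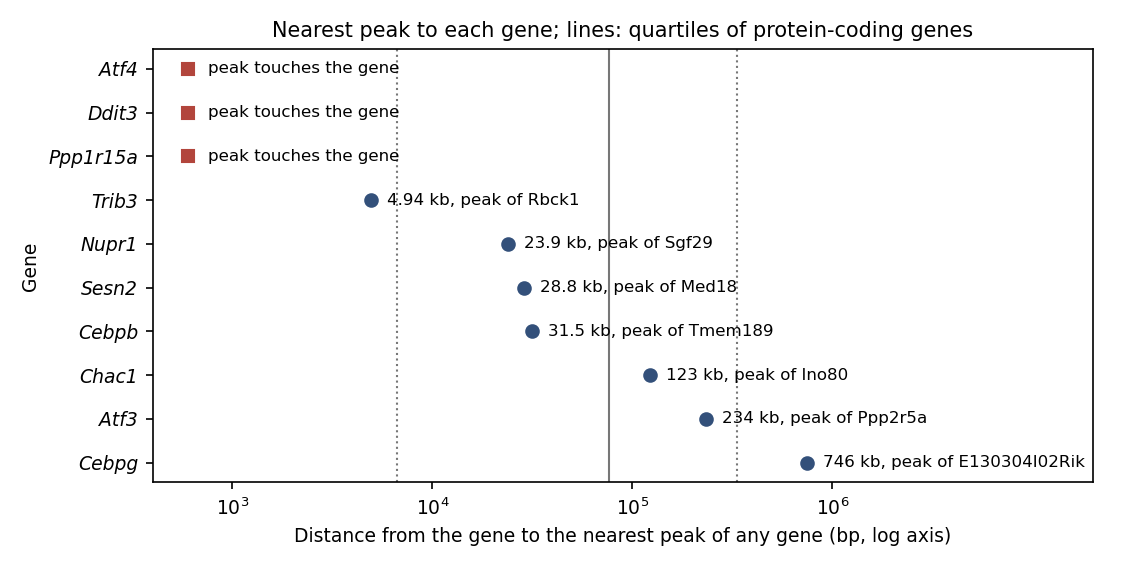
Distance in bp, on a log axis, from each of the 10 genes to the nearest XBP1s peak of any gene, with the gene that the peak is named for. Red squares are the 3 genes touched by a peak, blue circles the other 7, and vertical lines the quartiles (6.69, 76.4 and 335 kb) over 21631 protein-coding genes; Cebpg lies beyond the upper quartile and Trib3 below the lower.

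The motifs searched on both strands of the promoters (250 bp before to 50 bp after the RefSeq start) were ACGT, the core of many bZIP sites; the XBP1 core ACGTG, which contains it; CCACG, a part of the ER stress response element (ERSE); TGACGTGG, the unfolded protein response element (UPRE), with its shorter form TGACGTG; the longer XBP1 core GCCACGT; TGACGTCA, the cAMP response element; CCAAT, the NF-Y box; TGANTCA, the AP-1 site; TGATGNAAT, the C/EBP-ATF composite element; and ERSE and ERSE-II by name. ERSE is CCAAT and CCACG with 9 bases between them. Several of these overlap, so that a UPRE also counts as ACGT, ACGTG and TGACGTG. All 10 genes have a promoter in the RefSeq table. Only exact matches in these 300 bp were counted, and the parts of peaks beyond them were not searched. An absence therefore holds for the promoter window and not for the whole peak. A match describes letters and does not show a bound site.

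Exact matches to complete XBP1 elements were rare, and none was found in the 10 promoters. UPRE was present in 0.705% of 21263 promoters of protein-coding genes, TGACGTG in 2.17%, GCCACGT in 2.91%, ERSE in 0.141% and ERSE-II in 0.0517%. These shares were 1.96, 5.77, 7.73, 0.404 and 0.217% in the 3221 promoters that overlapped a peak.

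Short cores were present at all 3 genes with a peak. Atf4 holds CCACG 156 and 87 bases upstream and CCAAT 117 and 76 bases upstream, all inside the peak. It holds no ACGT in the 300 bp searched, which are only a part of its 1733 bp interval. The one pair in ERSE order, CCAAT then CCACG, is separated by 25 bases and not by 9. Ppp1r15a holds ACGTG 201 and 160 bases upstream, of which the second is inside the peak, and the cAMP response element TGACGTCA 12 bases upstream, also inside; its CCACG, on the other strand 26 bases downstream, is inside as well. The cAMP response element is held by 2.23% of promoters and by 5.93% of those overlapping a peak. Ddit3 holds ACGT 182 bases upstream, CCAAT on the other strand 77 bases upstream and an AP-1 site 242 bases upstream, all inside the peak. Its only ACGTG in the window searched lies 21 bases downstream of the start, outside the peak. ACGT was found in 2 of the 3 promoters with a peak and 2 of the 7 without. It was present in 33.0% of all promoters and in 55.2% of those overlapping a peak. The AP-1 site was present in 6.99% of all promoters and in 4.13% of those overlapping a peak.

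Promoters without a peak held such cores too. ACGTG was found in 2 of the 3 promoters with a peak and in 1 of the 7 without, that of Nupr1, where it lies in the palindrome CCACGTGG 226 bases upstream. It was present in 20.9% of all promoters and in 36.4% of those overlapping a peak. CCACG was found in 2 of the 3 and in 5 of the 7, against 37.4% of all promoters and 58.2% of those overlapping a peak. CCAAT was found in 2 of the 3 and 4 of the 7, against 38.2 and 40.6%. Cebpg holds CCACG 147 and 138 bases upstream and CCAAT on the other strand 89 and 28 bases upstream, and Sesn2 holds CCACG 82 and 7 bases upstream, and neither has a peak.

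The C/EBP-ATF element was searched in 2 forms. In its 9-letter form TGATGNAAT it was found only in Nupr1 among the 10, 111 bases upstream, against 0.800% of all promoters. Its first 8 letters, TGATGNAA, were searched after the sequences had been read, so the count is a description only. This form was present in 4 of the 7 promoters without an XBP1s peak: Nupr1, Atf3 (110 bases upstream), Chac1 (193 bases upstream) and Trib3 (14 bases downstream of the start). It was present in none of the 3 promoters with a peak, in the 300 bp searched. The Ddit3 interval reaches 375 bp upstream, and its part beyond that window was not searched. Over all genes it occurred in 3.60% of promoters, in 1.52% of those overlapping a peak and in 3.97% of the rest.

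**Figure D4:**
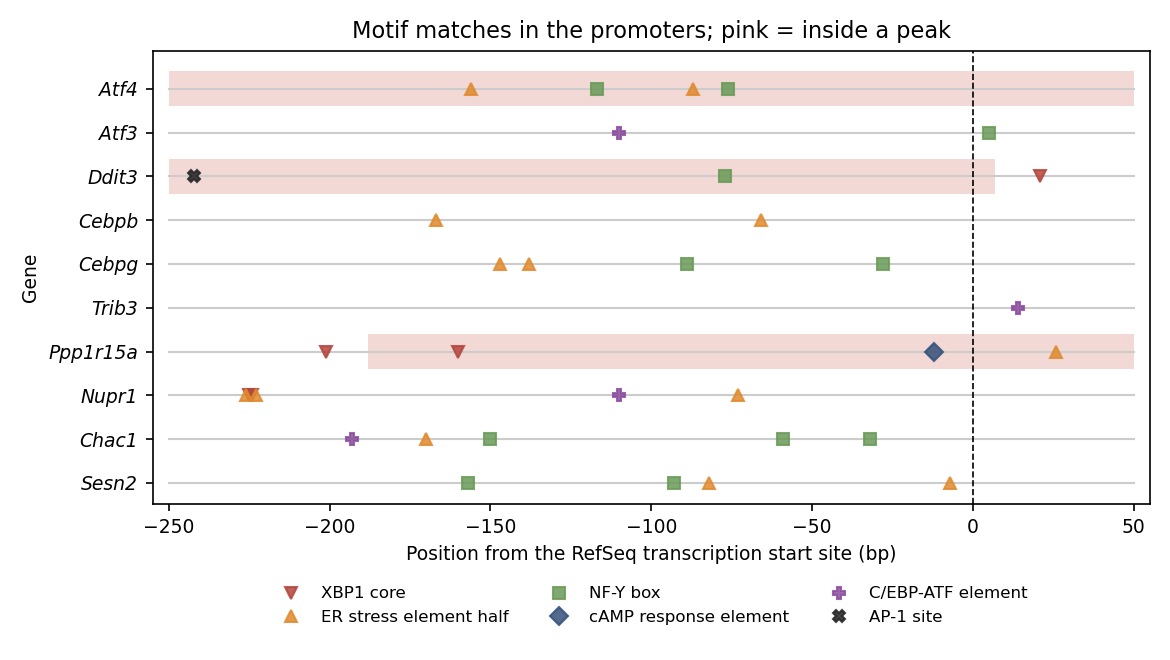
Positions in bp from the RefSeq start of motif matches on either strand (symbols) in the promoters of the 10 genes, with the part inside an XBP1s peak shaded pink; the C/EBP-ATF element is shown in its 8-letter form. Symbols of the C/EBP-ATF element stand at Atf3, Trib3, Nupr1 and Chac1, none of which is shaded.

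The wider pathway was read from 6 lists of genes ordered by role, 115 genes in all, of which 54 had their own peak near the TSS. The shares below stand beside 15.9% of all protein-coding genes and 28.9% of those with a CpG-rich promoter, the kind that most promoters of each of these lists are. Some genes are on more than 1 list. Upstream of ATF4, 7 of 18 genes of eIF2alpha phosphorylation had a peak (38.9%). The widest were at Eif2ak3, which encodes PERK (1430 bp), Dnajc3, which encodes the co-chaperone p58IPK (1103 bp), Ppp1r15b (985 bp), the adaptor gene Nck1 (775 bp), Ppp1ca, the catalytic subunit that GADD34 recruits (602 bp), and Eif2s3x, a subunit of eIF2 (378 bp). The other eIF2alpha kinase genes, Eif2ak1, Eif2ak2 and Eif2ak4, had no peak of their own centred within 5000 bp of the annotated TSS. For Eif2ak1 this depends on the TSS used. An interval of 292 bp named for it was centred 54246 bp from that TSS, yet the nearest peak lay 29 bp from the RefSeq gene. Both genes for the subunits that direct the phosphatase to eIF2alpha, Ppp1r15a and Ppp1r15b, had a peak near the TSS.

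Ppp1r15b encodes CReP, the constitutive counterpart of GADD34. Its interval of 985 bp was wider than 93.0% of all peaks, and the widest at Ppp1r15a, 487 bp, was wider than 65.7%; with 1 list and no replicate values, this difference was not tested. Of 12 close relatives of the 10 genes, Ppp1r15b and Jdp2 (406 bp), a repressor related to ATF3, had a peak (16.7%), near the 15.9% of all protein-coding genes. Of the 8 relatives with a RefSeq promoter 7 have a CpG-rich one, and 28.9% of all genes with such a promoter had a peak. Trib1, Trib2, Chac2, Sesn1, Sesn3 and Nupr1l had no peak near the TSS. The same was true of the 5 listed genes with both the C/EBP name in the symbol and a bZIP domain, Cebpa, Cebpb, Cebpd, Cebpe and Cebpg. This set was put together by name after the values were seen. It leaves out Ddit3, which encodes the bZIP factor CHOP and has a peak, only because its symbol lacks that name. Atf5, the closest relative of Atf4, had no peak of its own, but a 390 bp interval named for Il4i1b touched the gene.

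Of 26 ATF4 targets of amino acid supply 13 had a peak (50.0%), with a median width of 554 bp; 13 of the 20 with a RefSeq promoter have a CpG-rich one. The tRNA synthetase genes Mars1 and Eprs had intervals of 1033 bp each, the arginine transporter gene Slc7a1 one of 892 bp, Aldh18a1 of proline synthesis one of 669 bp, Psat1 of serine synthesis one of 631 bp and the synthetase gene Nars one of 574 bp. Of 21 other ATF4 and CHOP targets 10 had a peak (47.6%), with a median width of 406 bp. Herpud1, an ER-associated degradation gene, led with 1773 bp, followed by the autophagy receptor gene Sqstm1 (947 bp), the autophagy genes Atg12 (446 bp) and Atg5 (420 bp), the ER oxidase gene Ero1a (407 bp) and Jdp2. Among those without a peak were Ddit4, Gdf15, Fgf21, Stc2 and Vldlr.

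Of 14 UPR sensors and factors 7 had a peak (50.0%), with a median width of 1430 bp. Creb3l2 had the widest interval (2414 bp), ahead of Xbp1 (2296 bp) and Atf6 (1469 bp). The Atf4 interval of 1733 bp falls between those of Xbp1 and Atf6, and those of Ddit3 and Ppp1r15a are narrower than the next 3 of that list, at Eif2ak3 (1430 bp), Nfe2l1 (1037 bp) and Atf6b (784 bp). The last of the 7, at Mbtps1 (268 bp), is narrower than the Ddit3 interval and the first Ppp1r15a interval. These shares are set beside each other as descriptions, and no list was tested against another.

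**Figure D5:**
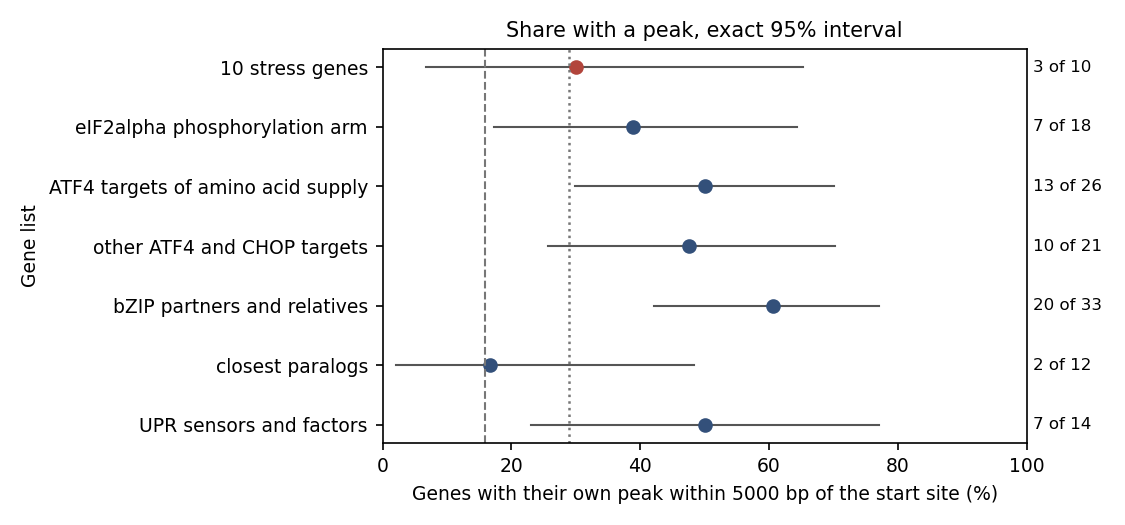
Share in percent of the genes of each list with their own XBP1s peak within 5000 bp of the start site (points, with exact 95% intervals for counting error), with the count at the right. The dashed line is the 15.9% of all protein-coding genes and the dotted line the 28.9% of those with a CpG-rich promoter; the 10 stress genes, at 30.0%, have an interval that spans both lines.

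For the labelled cell type, 5 of 12 NK cell markers had a peak near the TSS (Il2rb, Prf1, Gzmb, Nkg7 and Klrd1) and 0 of 12 markers of T, B, myeloid and red blood cells did (exact upper bound 26.5%), beside 15.9% of all protein-coding genes and 5.15% of those without a CpG-rich promoter. Only 1 of 10 NK marker promoters and 0 of 6 of the others in the RefSeq table are CpG-rich. The 0 of 12 depends on the markers listed, since Cd3d, a T cell gene next to the listed Cd3e, has a peak of 217 bp. Klrd1 counts through an interval of 190 bp in exon 4 of 6, centred 3616 bp from the TSS. The other 7 NK markers, Ncr1, Klrb1c, Klrk1, Itga2, Eomes, Tbx21 and Klre1, had no peak within 5000 bp of the TSS. Binding of XBP1s at a marker gene is not its expression, so these counts do not identify the cells.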

How the data were processed

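One table covers the 2 immunoprecipitations and 2 inputs. Per the file header, the authors ran the HOMER annotator on 1 set of intervals, named common, with build mm10. The submitters' processing notes list HOMER 4.11.1 and 4.11, MACS2 2.2.7.1, Bowtie2 2.4.5, FastQC 0.11.9 and Trim Galore 0.6.7. The sources used here do not give how the common set was made. An interval may be a shared part of several calls and its width that of the overlap. The deposited score is 0 in all 4890 rows. Nearest gene, annotation class and distance to the TSS are the authors'.

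Genes were matched by Entrez number to RefSeq tables of GRCm38.p6. All 158 list entries matched, 2 through an older symbol. A peak was credited to the gene it is named for if its centre lay within 5000 bp of the TSS. Gaps count bases between an interval and a gene. Promoter sequences are from RefSeq, and the motif search and gaps were tested on simulated data. Computations used matplotlib 3.10.9, SciPy 1.17.1, NumPy 2.4.6 and pandas 2.3.3 under Python 3.11.15.

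The members and lists were chosen with earlier results of these data known. The rule for named genes took all 10 members, up to 6 genes per other list with the widest peaks, the 3 closest to Atf4 in width and genes of peaks near members; other genes were named after their values were seen. No test was made between lists or libraries. Alternatives varied the window, the peaks used and the gene assignment.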

Additional observations from a re-analysis of the deposited data

How the results depend on the processing

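The count of 3 of 10 genes was also 3 with windows of 1000 bp, 20000 bp or any distance, with peaks of at least 200 bp, with the wider 50% of peaks (at least 373 bp, against 383 bp at Ddit3) and with any peak within 1000 bp of a gene end. It was 4 with any peak within 5000 bp of a gene end, where the Rbck1 peak brings in Trib3, and 1, Atf4, with the widest 10% of peaks. Of all protein-coding genes, 15.9% had a peak in the main setting, and 15.1, 16.8 and 17.8% with the 3 other windows, 14.8% with peaks of at least 200 bp, 9.03% with the wider 50% and 1.93% with the widest 10%. That share was not counted for the rules by gene ends, so the counts by gene ends have no background here. For scale, 23.7% of protein-coding genes had a peak, inside or outside the gene, closer than the 4937 bp of Trib3. With the widest 10%, the counts fell to 3 for eIF2alpha phosphorylation, 3 for amino acid supply, 2 for other targets, 5 for bZIP factors and 1 for close relatives, since fewer peaks were used; for UPR sensors and factors it was 5, against 7. With the wider 50% they were 7 for amino acid supply and 13 for bZIP factors. The window of 1000 bp gave 16 for bZIP factors and 8 for other targets, against 20 and 10 in the main setting. Peaks of at least 200 bp gave 18 and 9. By gene ends within 5000 bp, eIF2alpha phosphorylation had 12 and the relatives 4, and the relatives had 4 within 1000 bp as well. In the part of the promoter window inside the peak, ACGTG was in 1 of the 3 genes, not 2. The shortened C/EBP-ATF element, added after the sequences were read, raised the count of promoters from 1 to 4. No paired analysis was possible because the list has no column of a single library, and for the same reason no replicate could be left out.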

Other observations

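Other bZIP genes, the family of ATF4 and CHOP, had XBP1s peaks in 20 of 33 cases (60.6%), against 15.9% of all protein-coding genes and 28.9% of those with a CpG-rich promoter, with no test made. Of the 26 with a RefSeq promoter 21 have a CpG-rich one. The count includes Cebpz, which carries the C/EBP name without the bZIP domain. The widest were at Crem (1438 bp), Atf2 (1278 bp), Fosl2 (1193 bp), Nfe2l1 (1037 bp), Jund (970 bp) and Maff (675 bp), genes of CREB, AP-1, NRF and small MAF factors. Fos had an interval of 487 bp centred 57 bp upstream of the TSS, the same width as the first interval of Ppp1r15a. Batf, Batf2, Batf3 and Junb had none.

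Slc38a2, which encodes the amino acid transporter SNAT2, had a wider interval away from its start (1199 bp, centred 10006 bp upstream) than at it (355 bp). Phgdh, the first enzyme of serine synthesis, had its only interval (473 bp) 8484 bp upstream and so did not count as having a peak near the TSS.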
